A study of Mus musculus with 4 samples.

Results

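Blockade of the checkpoint ligand PD-L1 without radiotherapy (RT) was compared with no treatment in CD8+ PD-1+ CD44+ T cells sorted from the tumor-draining lymph node (TdLN). The animals were female C57BL/6 mice, 6 weeks old when purchased, with no engineered allele. They carried B16F10GP melanomas in both flanks. B16F10GP is a sorted B16F10 line transduced with the lymphocytic choriomeningitis virus glycoprotein, a model tumor antigen, and with the fluorescent protein ZsGreen. In the αPD-L1 group the antibody was injected intraperitoneally and cells were taken 7 days after treatment, and the Control group was left untreated. The TdLN was that of tumor 1, the tumor irradiated in the RT arms. Every mouse was marked with a hashtag antibody and 5 mice were pooled into 1 droplet library for each treatment. Differences between treatments therefore cannot be told apart from differences between libraries, and p-values measure the spread between mice within libraries. RT alone and RT + αPD-L1, with 5 mice each, served as further comparisons.

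Members were all barcodes of both libraries with 500 to 5000 detected genes, at most 40000 unique molecular identifiers (UMIs), under 10% mitochondrial UMIs and a single clear hashtag. Barcodes with 2 or more Trdc UMIs (γδ T cells), 2 or more Cd79a UMIs (B cells) or 3 or more H2-Aa plus H2-Ab1 UMIs (antigen-presenting cells) were left out. These steps kept 10684 cells of αPD-L1 and 8990 of Control, 19674 of the 38320 cells in all 4 libraries. Mice were unevenly represented, from 639 cells in Control mouse 4 to 4275 cells in αPD-L1 mouse 2, with 5079475 to 35206689 UMIs each. Median UMIs per cell were 6217.5 in αPD-L1 and 6951 in Control, and median mitochondrial shares were 1.73% and 1.83%. Barcodes with several hashtags, 7.49% to 8.96% of filtered barcodes per library, were removed as doublets. Of the kept barcode sequences, 134 occurred in both libraries. Summed counts per mouse carried transcripts of T cells, of CD8 and of CD44, but the PD-1 part of the sort was not shown by transcripts. With all UMIs counted, Pdcd1 (PD-1) was detected in 10.5% to 16.6% of cells in Control mice and 7.95% to 15.5% in αPD-L1 mice. Cd3e, a chain of the T cell receptor complex, lay between 1002 and 1180 TMM-scaled counts per 1000000 (CPM) in the 10 mice, Cd8a between 651 and 851 and Cd44 between 53.5 and 85.3.

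PD-1 is an inhibitory receptor that T cells put on their surface after antigen contact. When PD-L1 or PD-L2 on another cell engages it, phosphatases recruited to its tail dampen signaling from CD28 and from the antigen receptor. Draining nodes hold PD-1+ T cells that keep the transcription factor TCF-1 (gene Tcf7), divide and give rise to cytotoxic progeny, and these cells are a known target of antibodies against PD-1 or PD-L1.

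Few genes passed the test between αPD-L1 and Control. By edgeR's quasi-likelihood test on the 5 + 5 mouse sums, 142 of 11840 genes were called at a Benjamini-Hochberg adjusted p under 0.05, 1.2% of all genes tested. Of them, 68 were higher (0.574%) and 74 lower (0.625%) in αPD-L1. At an unadjusted p under 0.05 there were 2003 genes (16.9%), the share against which counts at that threshold in single lists are to be read. Changes were small: 126 of the 142 were under 1.5-fold, 2 were higher (H2-Ab1, one of the genes used to remove barcodes, and Trav19, at 0.83 on the log2 scale without αPD-L1 mouse 2) and 1 lower (Lbp) by 2-fold or more, and the median absolute log2 fold change was 0.28. All genes had a median log2 fold change of -0.0037. For the typical gene the 95% interval, not adjusted for the number of genes, reached 0.17 to either side. Smaller changes could be called only in genes with narrower intervals. Such a call was 1 nuclear oxidative phosphorylation gene, lower, in a list whose lowest log2 fold change was -0.16. Sums per mouse cannot tell more cells of a type from more RNA per cell. In 541 genes (4.57%) the ranges of the groups did not overlap, and 120 of these were among the 142. The count was not stable: leaving out 1 mouse at a time gave from 14 genes (without Control mouse 1) to 291 (without αPD-L1 mouse 2, 2.46% of genes), and 13 genes were called whichever mouse was left out. With the study's hashtag caller HTODemux in place of the assignment used here, 38 or 17 genes were called, depending on how hashtag counts were normalised. HTODemux left 448 or 73 cells of Control mouse 1 (2117 here) and 2439 or 703 of Control mouse 2 (3202 here). Of αPD-L1 mouse 2 it left 3079 or 2402 (4275 here). The part of these losses in the lower counts was not tested. DESeq2 called 276 genes (2.33%) and limma-voom 241 (2.04%) on the 5 + 5 mouse sums from the assignment used here. A fit of all 20 mice of the series called 61 genes (0.506%), of which 51 were among the 142.

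Genes that fell in αPD-L1 included products of T cell stimulation, histones and transcripts read as signs of library quality. Among 35 antigen-receptor response genes, which T cells induce within minutes to hours of stimulation, 3 fell and none rose, 30 had a negative log2 fold change, and the list median was -0.12. Of all genes, 0.625% were called lower. An unadjusted p under 0.05 was found for 17 of the 35, against 16.9% of all genes. The 3 that fell were Phlda1, Nfkbia and Dusp1. Nfkbia encodes IκBα, the inhibitor that holds NF-κB in the cytoplasm and is itself induced by NF-κB. Dusp1 encodes a phosphatase that switches off MAP kinases. Phlda1 (chr10:111506286-111508645, mm10) encodes a pleckstrin-homology-like domain protein induced by receptor signals. The 250 bases before the RefSeq starts (GRCm38.p6) of Nfkbia and Dusp1, both on the minus strand, are shown because these genes are textbook examples of stimulus-driven promoters and fell together here. Capitals mark matches of GGG followed after any 5 bases by CC, an NF-κB type motif, in Nfkbia (chr12:55492648-55492897) and of TGACGTCA, the cyclic AMP response element, in Dusp1 (chr17:26508473-26508722).
Nfkbia: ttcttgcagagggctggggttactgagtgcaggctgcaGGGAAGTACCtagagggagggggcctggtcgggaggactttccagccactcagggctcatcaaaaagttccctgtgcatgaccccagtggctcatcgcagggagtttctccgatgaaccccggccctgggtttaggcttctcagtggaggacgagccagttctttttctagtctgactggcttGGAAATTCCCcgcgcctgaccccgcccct
Dusp1: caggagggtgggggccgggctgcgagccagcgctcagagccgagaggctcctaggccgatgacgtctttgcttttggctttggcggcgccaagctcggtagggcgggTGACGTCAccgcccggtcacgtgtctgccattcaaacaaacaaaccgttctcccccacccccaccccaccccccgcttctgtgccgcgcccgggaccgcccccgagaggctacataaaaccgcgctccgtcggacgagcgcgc
Both strands were searched. Nfkbia held matches starting 212 and 29 bases before its start, the second on the other strand, and 45.8% of the 32851 RefSeq promoters of this length held the motif. The palindrome in Dusp1 lay 143 bases before the start, and 1.55% of promoters held it. Both are matches of letters and not measured binding sites.

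Phlda1 stood at 49.98, 54.0, 56.4, 47.6 and 49.1 CPM in Control mice 1 to 5 and at 42.9, 36.7, 36.5, 41.1 and 40.8 in αPD-L1. Every αPD-L1 mouse lay below every Control mouse (log2 fold change -0.40 ± 0.060 SE, edgeR adjusted p = 0.00803), and the call held whichever mouse was left out, but not in the fit of all 20 mice (edgeR adjusted p = 0.0809) or with HTODemux at margin 1 (0.0601). Nfkbia was more abundant, at 580, 648, 561, 541 and 541 CPM in Control and 491, 461, 434, 480 and 479 in αPD-L1. These groups did not overlap either (-0.30 ± 0.051, edgeR adjusted p = 0.0211). The Nfkbia call was lost without Control mouse 1 (edgeR adjusted p = 0.0643) or αPD-L1 mouse 4 (0.0528) and with HTODemux at margin 1 (0.0601). Dusp1 gave 348, 350, 380, 367 and 373 CPM against 349, 283, 282, 297 and 293. Its groups overlapped through αPD-L1 mouse 1, which matched the lowest Control mice, while the other αPD-L1 mice were lower (-0.28 ± 0.054, edgeR adjusted p = 0.0301). The Dusp1 call was kept in only 2 of the 10 leave-one-out fits. It was also lost in the fit of all 20 mice (edgeR adjusted p = 0.136) and with HTODemux at margin 1 (0.167). Other members of the class did not pass the test. Fos, an AP-1 subunit, had a log2 fold change of -0.08 (edgeR adjusted p = 0.757), and Nr4a1, a nuclear receptor that reports antigen-receptor signals, -0.20 (edgeR adjusted p = 0.297). Junb, another AP-1 subunit, gave -0.18 (edgeR adjusted p = 0.174). Rel and Furin were chosen after their values were seen. Rel, the NF-κB subunit c-Rel, fell (-0.23, edgeR adjusted p = 0.0399, called in 3 of 10 leave-one-out fits). Furin, a protease that matures secreted precursors, fell as well (-0.36, edgeR adjusted p = 0.0211). The Furin call was lost in the fit of all 20 mice (edgeR adjusted p = 0.127) and without Control mouse 1 or 5 or αPD-L1 mouse 4. Of 16 anergy and chronic stimulation markers, 1 fell, none rose and 12 were negative (median -0.17). An unadjusted p under 0.05 was found for 7 of the 16, against 16.9% of all genes. The one that fell was Cd200, a surface glycoprotein, at 63.8 to 75.9 CPM in Control and 42.5 to 60.7 in αPD-L1 (-0.37 ± 0.084, edgeR adjusted p = 0.0484). The Cd200 call was kept only without αPD-L1 mouse 2 among the 10 leave-one-out fits, and was lost in the fit of all 20 mice (edgeR adjusted p = 0.13), with DESeq2 size factors (0.0505) and with HTODemux at margins 2 and 1 (0.117 and 0.0948).

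Among transcripts used as signs of library quality, 3 abundant ones fell. Gm42418 and AY036118 overlap each other on opposite strands of chromosome 17 (39846958 to 39848788 and 39847113 to 39848035, mm10) and overlap sequence of ribosomal RNA, so reads cannot be assigned to either with certainty. AY036118 lay at 854, 888, 839, 883 and 889 CPM in Control and at 575, 525, 606, 600 and 544 in αPD-L1. Gm42418 ranged from 5886 to 6824 CPM in Control and from 4086 to 4755 in αPD-L1. Lars2, which encodes the mitochondrial leucyl-tRNA synthetase, gave 303, 308, 293, 362 and 325 CPM against 217, 204, 241, 239 and 234. All 3 separated the groups completely, with log2 fold changes of -0.61 ± 0.043, -0.53 ± 0.052 and -0.49 ± 0.060 (edgeR adjusted p = 8.6e-06, 0.000229 and 0.00166), and were called whichever mouse was left out. Of the 8 library quality transcripts tested, these 3 fell and none rose (0.625% of all genes were called lower). An unadjusted p under 0.05 was found for 5 of the 8, against 16.9% of all genes. The 13 mitochondrially encoded genes had a median of -0.08, with 11 negative and 5 at an unadjusted p under 0.05. The call in this list was 1 lower gene, mt-Nd3, a subunit of complex I (-0.27, edgeR adjusted p = 0.0317). The mt-Nd3 call was lost in the fit of all 20 mice (edgeR adjusted p = 0.0612) and with HTODemux at margin 1 (0.108). It was also lost when any single Control mouse, or αPD-L1 mouse 4 or 5, was left out. Lower levels of these transcripts went along with the other differences between the libraries, and their part in those differences was not tested.

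**Figure D1:**
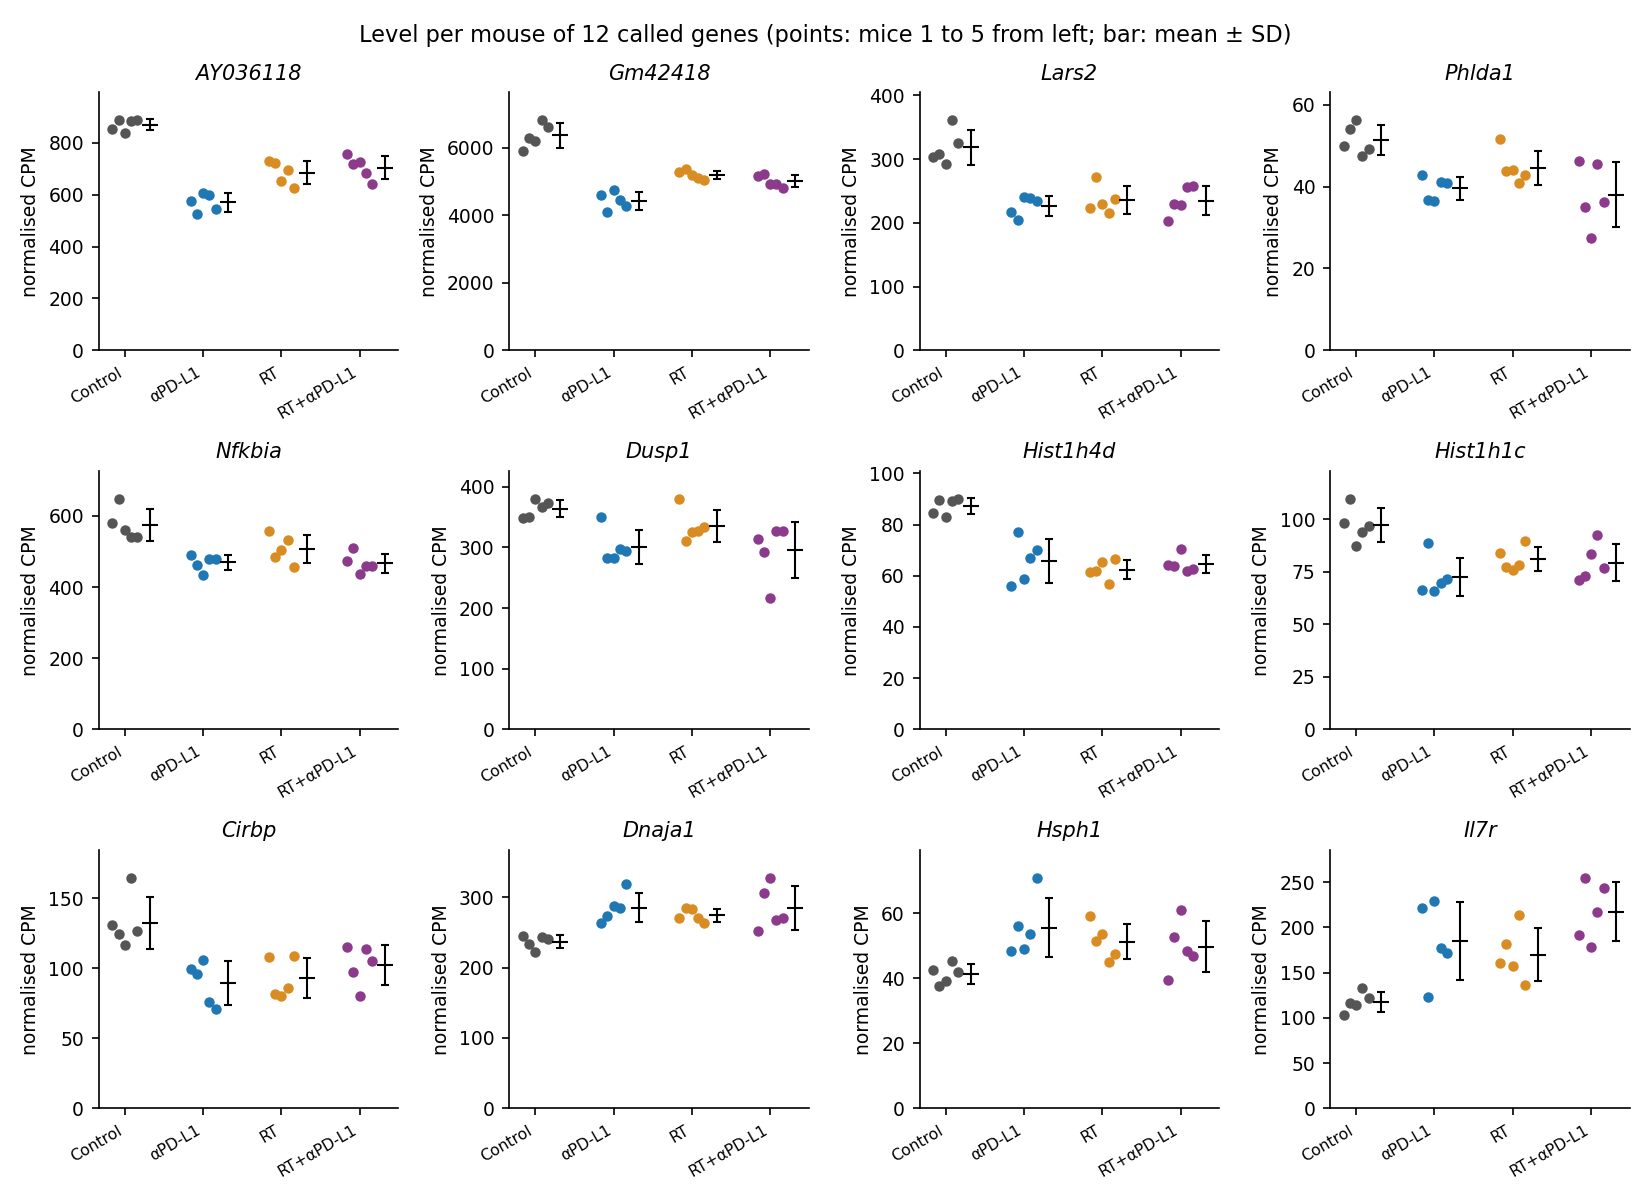
Normalised CPM (y axis, from 0) of 12 genes called in αPD-L1 against Control, for each mouse of the 4 treatments. Points are mice 1 to 5 from left to right and the bar beside them is the mean with its SD. In AY036118, Gm42418, Lars2, Phlda1 and Nfkbia the 5 αPD-L1 mice lie below all 5 Control mice, and in Dusp1 and Hist1h1c 1 αPD-L1 mouse reaches the Control range.

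Replication-dependent histone genes are copied in S phase and mostly lack a poly(A) tail. They gave 5 calls, all lower, among the 60 tested (0.625% of all genes were called lower). An unadjusted p under 0.05 was found for 23 of them, against 16.9% of all genes. Of the 60, 54 had a negative log2 fold change, with a median of -0.21 against -0.0037 for all genes. Hist1h4d, a histone H4 gene, gave 84.6, 89.5, 83.0, 89.2 and 90.1 CPM in Control and 55.9, 77.003, 58.7, 66.9 and 70.1 in αPD-L1. All αPD-L1 mice were lower, and mouse 2 came nearest to Control (-0.40 ± 0.070, edgeR adjusted p = 0.0229). Hist1h1c, a linker histone, ranged from 87.5 to 110 CPM in Control and from 66.1 to 88.5 in αPD-L1, with only mouse 2 above 71.7 (-0.42 ± 0.078, edgeR adjusted p = 0.0272). Hist1h4h, Hist1h3a and Hist1h4c fell by 0.32, 0.51 and 0.27 on the log2 scale (edgeR adjusted p = 0.0272, 0.0353 and 0.0372). The H4 genes encode the same protein from similar sequences, so the share of each is uncertain. Hist1h2ae, an H2A gene, had the opposite sign at 0.10 (edgeR adjusted p = 0.837). Without αPD-L1 mouse 2 the list counted 16 lower of 59, in a fit that called 143 of 11826 genes lower. Without Control mouse 1, 2 or 5 or αPD-L1 mouse 4 it counted none. These fits called 14, 22, 36 and 22 genes in all. Genes of division itself did not follow: none of 41 S phase genes and none of 55 G2 and M phase genes passed the test in either direction, with 4 and 3 at an unadjusted p under 0.05 and medians of -0.01 and 0.04. DESeq2 called none of the S phase genes and 1 of the G2 and M phase genes, the condensin subunit Smc4, lower. Mki67, the proliferation antigen Ki-67, lay at 137 to 157 CPM in Control and 110 to 193 in αPD-L1, with mouse 2 highest (-0.05, edgeR adjusted p = 0.899).

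Other genes that fell included Cirbp, which encodes a cold-inducible RNA-binding protein, at 131, 125, 117, 165 and 126 CPM in Control and 99.3, 96.0, 106, 75.9 and 70.6 in αPD-L1. The groups were apart, and Control mouse 4 stood above its group (-0.55 ± 0.106, edgeR adjusted p = 0.0304). The Cirbp call was lost without Control mouse 1, 2, 4 or 5 or αPD-L1 mouse 4 or 5. The largest decreases included Lbp, the lipopolysaccharide-binding protein (-1.09, edgeR adjusted p = 0.0136), and Npw, neuropeptide W (-0.97, edgeR adjusted p = 0.0317), both at trace levels of at most 6.54 CPM in any mouse. Ier5l, a gene of the immediate-early response family, Bcat1, the cytosolic branched-chain aminotransferase, and Stoml1, a stomatin-like membrane protein, fell by 0.90, 0.55 and 0.54 on the log2 scale (edgeR adjusted p = 0.0237, 0.0433 and 0.00753). Odc1, ornithine decarboxylase, the entry enzyme of polyamine synthesis, was picked after its values were seen. It fell from 172, 174, 164, 161 and 166 CPM to 143, 131, 117, 122 and 132, without overlap (-0.39 ± 0.048, edgeR adjusted p = 0.0018). Shmt1 and Shmt2, the serine hydroxymethyltransferases of one-carbon metabolism and also picked afterwards, fell by 0.32 and 0.21 on the log2 scale (edgeR adjusted p = 0.0386 and 0.0457), Shmt2 in only 1 of 10 leave-one-out fits.

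Among genes that rose, heat shock chaperones, the IL-7 receptor and a natural killer receptor chain were called. Of 10 heat shock genes tested, 2 rose, none fell and 6 were positive (median 0.04). Of all genes, 0.574% were called higher. An unadjusted p under 0.05 was found for 3 of the 10, against 16.9% of all genes. Dnaja1, an HSP40 co-chaperone, went from 244, 234, 223, 243 and 240 CPM to 263, 274, 287, 284 and 318. Every αPD-L1 mouse was above every Control mouse (0.27 ± 0.047, edgeR adjusted p = 0.0229). The Dnaja1 call was lost without Control mouse 1, 2 or 5 or αPD-L1 mouse 4. Hsph1, an HSP110 chaperone, lay at 37.6 to 45.4 CPM in Control and 48.4 to 70.9 in αPD-L1 (0.42 ± 0.086, edgeR adjusted p = 0.0353), and Chordc1, an HSP90 co-chaperone chosen after its values were seen, rose by 0.25 (edgeR adjusted p = 0.0343). The Hsph1 call was lost in the fit of all 20 mice (edgeR adjusted p = 0.0569), with HTODemux at margin 1 (0.116) and in cells with a Tcf7 UMI (0.0534). It was also lost in leave-one-out fits such as those without Control mouse 1, 2 or 3. Il7r (chr15:9505788-9530176, mm10), the IL-7 receptor α chain that naive and memory T cells need for survival, was the only gene called among 19 stem and memory genes. It gave 103, 117, 115, 133 and 122 CPM in Control and 222, 123, 229, 177 and 172 in αPD-L1. Mice 1, 3, 4 and 5 of αPD-L1 were above all Control mice, and mouse 2 was inside the Control range (0.64 ± 0.134, edgeR adjusted p = 0.038). The Il7r call was kept in 2 of 10 leave-one-out fits, and the log2 fold change stayed between 0.54 and 0.78 in them.

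Further genes that rose were single members of their lists. Of all genes, 0.574% were called higher. Icam2, an adhesion ligand of LFA-1, rose by 0.27 (edgeR adjusted p = 0.0453, 3 of 10 leave-one-out fits) and was the only one of 27 chemokine receptors and adhesion molecules called. H2-M3, a nonclassical class I molecule that presents formylated peptides, rose by 0.21 (edgeR adjusted p = 0.0467) and was the only one of 24 MHC class I presentation genes called. The H2-M3 call was kept in 2 of 10 leave-one-out fits, and was lost in the fit of all 20 mice (edgeR adjusted p = 0.24), with no filter on low counts (0.0567), with HTODemux at margins 2 and 1 (0.144 and 0.315) and in cells with a Tcf7 UMI (0.0597). Trav19, a T cell receptor α variable segment, was the only one of 91 segments called. It lay at 6.54, 7.70, 4.21, 9.76 and 9.24 CPM in Control and 10.9, 29.1, 13.4, 15.7 and 10.7 in αPD-L1, with mouse 2 far above the rest (1.22 ± 0.263, edgeR adjusted p = 0.0427, 2 of 10 leave-one-out fits). Tec, a kinase of antigen-receptor signaling, rose by 0.40 (edgeR adjusted p = 0.0343, 2 of 10 leave-one-out fits). Ggt1, a glutathione-degrading enzyme of the cell surface, lay at 3.82 to 4.22 CPM in Control and 5.92 to 7.77 in αPD-L1 (0.79 ± 0.106, edgeR adjusted p = 0.00365), and was called in each leave-one-out fit. Tubb3, a tubulin, rose by 0.81, Med18, a Mediator subunit, by 0.55 and the ribosomal protein pseudogene Rpl10-ps3, whose reads may belong to other copies of Rpl10, by 0.44 (edgeR adjusted p = 0.0396, 0.0211 and 0.000847). Chosen after their values were seen, Ccnd3 (cyclin D3), Runx3 (a transcription factor of the CD8 lineage), Creb1 (a factor that binds the cyclic AMP response element) and Tmod3 (an actin-capping protein) rose by 0.22, 0.24, 0.30 and 0.26 (edgeR adjusted p = 0.0272, 0.0476, 0.0136 and 0.00594). Runx3 was called in 1 of 10 leave-one-out fits.

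MHC class II genes were also higher, at the level of traces. H2-Ab1 ranged from 0.578 to 1.07 CPM in Control and from 1.40 to 2.54 in αPD-L1, and H2-Aa from 1.04 to 2.01 and from 2.15 to 3.67 (log2 fold changes 1.21 and 0.99). Since barcodes were removed by the sum of these genes, their values are given as a description. H2-Eb1, chosen afterwards and not used in that rule, had a log2 fold change of 0.67 (edgeR adjusted p = 0.115). Of 10 dendritic cell markers 6 were tested, and H2-Aa and H2-Ab1 were the only ones with an edgeR adjusted p under 0.05. Of the other 4, 2 were positive, with a median of -0.03. The summed level of all 10 was 151 to 220 CPM in Control and 170 to 201 in αPD-L1. Cst3 and Cd74, the most abundant of these markers, gave 0.11 and -0.16 (edgeR adjusted p = 0.217 and 0.697). Cd74 depended on the removal: with no barcodes removed it rose by 0.90 (edgeR adjusted p = 0.00687). In αPD-L1 2.25% of barcodes with a hashtag had been removed, and in Control 1.99%. Summed B cell markers (201 to 217 CPM in Control, 201 to 220 in αPD-L1), monocyte and macrophage markers (23.3 to 36.8 and 26.9 to 51.0) and γδ T cell markers (19.9 to 36.7 and 10.9 to 40.2) overlapped, and edgeR called none of their 18 tested genes (3 at an unadjusted p under 0.05), nor did DESeq2 or limma-voom. Cd79a and Trdc, by which barcodes were also removed, belong to the B cell and γδ T cell lists. The overlap of these lists was thus set in part by the removal and is given as a description. Melanoma markers summed to at most 2.43 CPM, with 2 of 6 at 0 in all 10 mice.

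**Figure D2:**
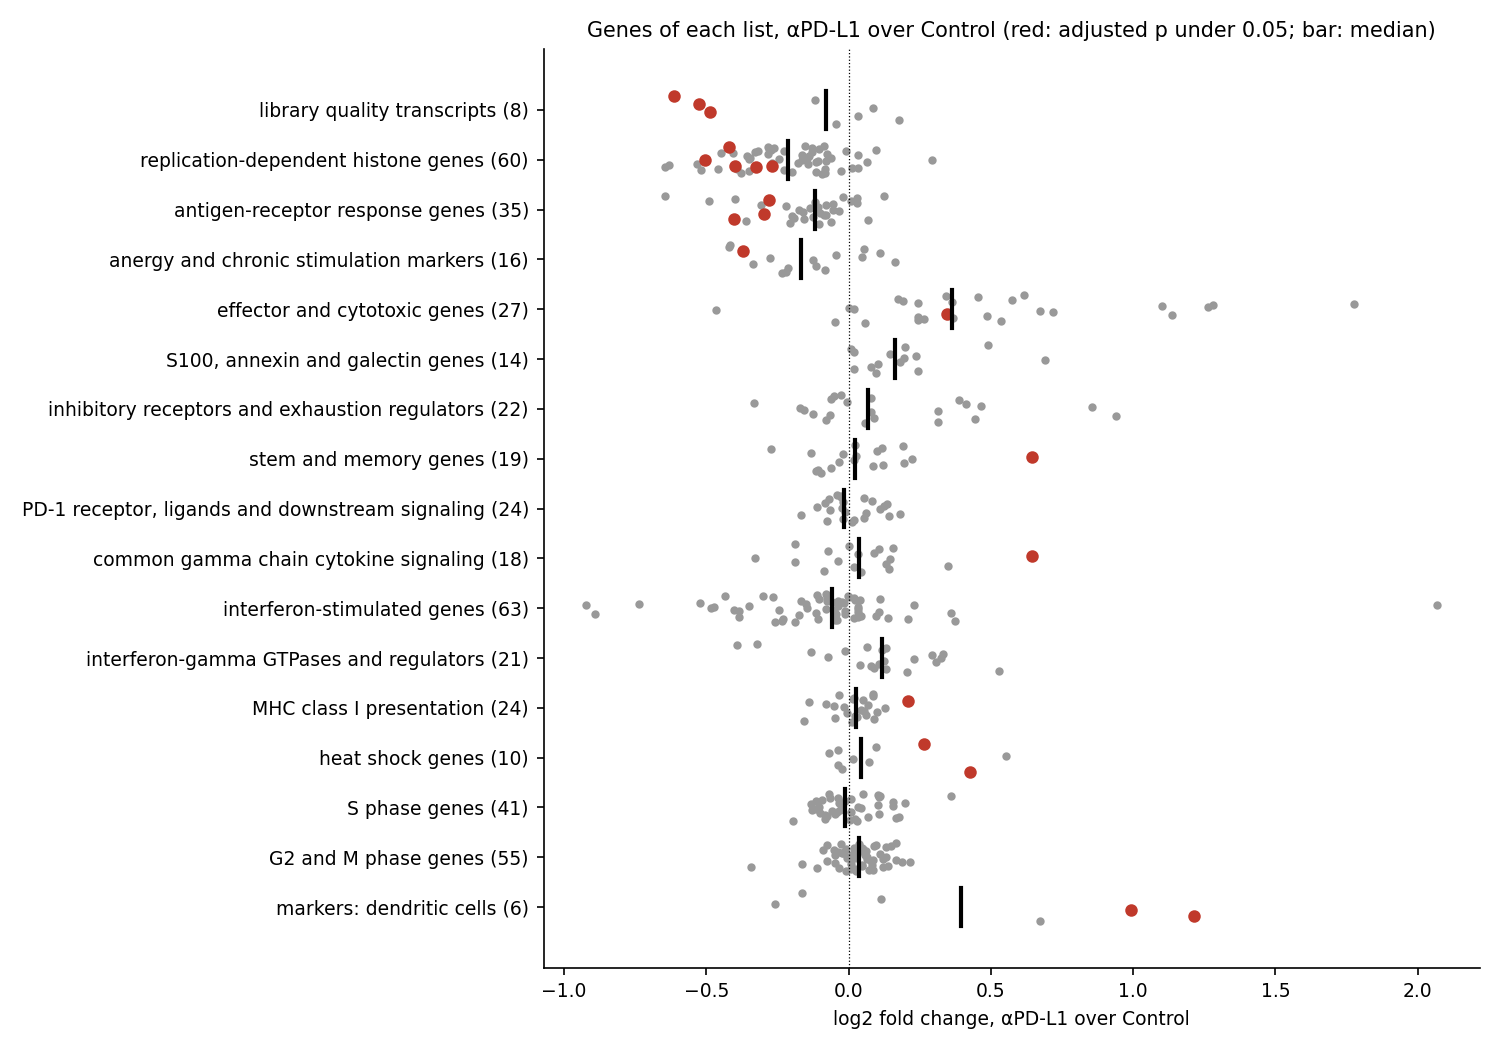
Log2 fold changes of αPD-L1 over Control (x axis) for the tested genes of each list (rows, number tested in brackets). Each point is a gene, red where the adjusted p was under 0.05, and the bar is the list median, which is -0.21 for histones, -0.12 for antigen-receptor response genes, 0.36 for effector genes and -0.06 for interferon-stimulated genes.

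Among genes of the effector and cytotoxic program, 1 rose and 0 fell. Of 27 tested, 25 were positive, 18 had an unadjusted p under 0.05, against 16.9% of all genes, and the median was 0.36, against -0.0037. Some of these genes are also expressed by natural killer (NK) cells. Of 8 NK cell markers 4 were tested and 3 were positive (median 0.35, 2 at an unadjusted p under 0.05, none called by edgeR, DESeq2 or limma-voom). Their summed level was 51.6 to 62.8 CPM in Control and 51.3 to 105 in αPD-L1, most of it Eomes, which CD8 T cells also express, and their part in the effector values was not tested. Klrd1 (chr6:129591782-129598775, mm10), which encodes CD94, the partner of NKG2 receptors, rose from 168, 175, 136, 173 and 156 CPM to 209, 193, 242, 194 and 191. The groups did not overlap (0.35 ± 0.074, edgeR adjusted p = 0.0423), although the call was kept in 1 of 10 leave-one-out fits.

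Granzymes had larger estimates and a wider spread. Gzmb, granzyme B, gave 6.54, 18.0, 5.32, 9.96 and 9.04 CPM in Control and 6.46, 47.0, 30.8, 16.7 and 12.8 in αPD-L1. Mice 2 and 3 of αPD-L1 were above all Control mice, and mouse 1 was as low as the lowest (1.28 ± 0.404, edgeR adjusted p = 0.127). Gzma, granzyme A, gave 5.61, 14.6, 6.09, 17.3 and 1.07 CPM against 1.61, 89.1, 5.44, 9.49 and 21.2. Here αPD-L1 mouse 2 was several times above every other mouse of αPD-L1 and Control (1.78 ± 0.764, edgeR adjusted p = 0.251), and without it the log2 fold change was 0.07. Among granzymes and related genes chosen after their values were seen, Gzmk and Gzmm, further granzymes, gave 1.10 and 1.26 (edgeR adjusted p = 0.221 and 0.103), and mouse 2 was again highest at 89.8 and 23.98 CPM. Ctsw, the lymphocyte cathepsin W, separated the groups at 311 to 369 and 371 to 398 CPM, and still missed the threshold (0.19, edgeR adjusted p = 0.0609). Prf1 (perforin), Klre1 (an NK lectin receptor) and Ccl5 (a chemokine of memory and effector T cells) gave 0.37, 1.14 and 0.45 (edgeR adjusted p = 0.0728, 0.0653 and 0.178). Cytokine genes were at the other end of the list. Ifng, interferon-γ, ranged from 45.8 to 84.5 CPM in Control and 44.8 to 66.1 in αPD-L1 (0.02, 95% interval -0.30 to 0.34), Tnf gave -0.05 (edgeR adjusted p = 0.901) and Il2, chosen afterwards, -0.47 (edgeR adjusted p = 0.134).

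Without αPD-L1 mouse 2 the effector list kept a median of 0.21 with 22 of 27 positive and 2 called, Klrd1 and Ctsw. That fit called 148 of 11826 genes higher. αPD-L1 mouse 2 was also the one with most cells and the highest median depth of its group, 6697 UMIs per cell.

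**Figure D3:**
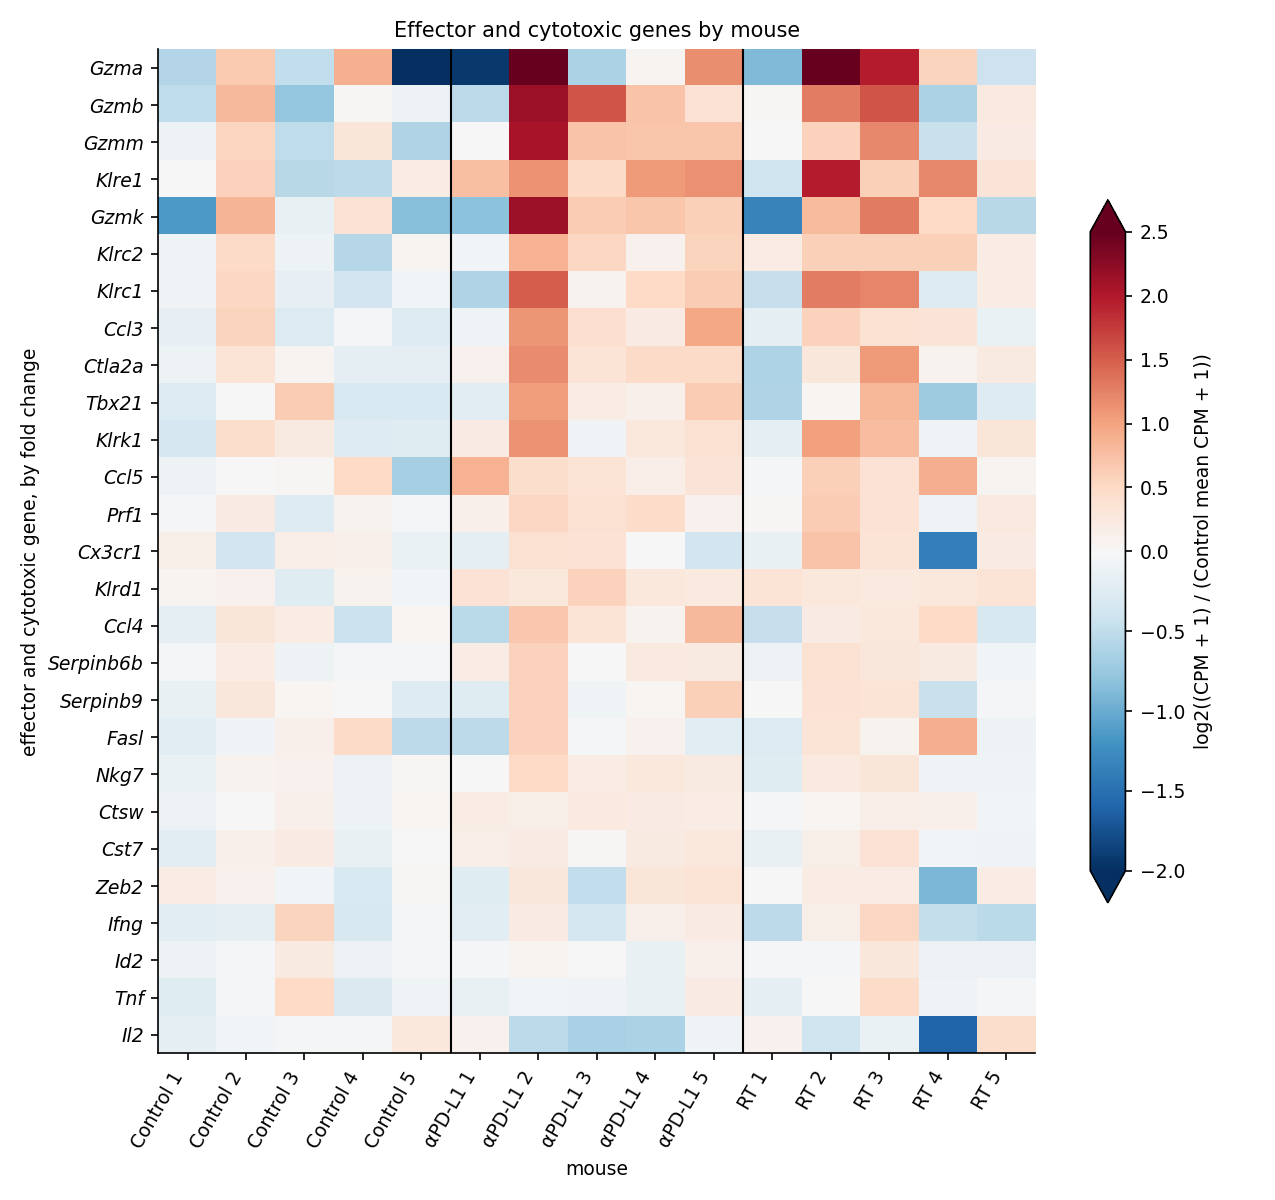
Effector and cytotoxic genes (rows, ordered by fold change in αPD-L1 over Control) in each mouse of Control, αPD-L1 and RT (columns). Color is the log2 ratio of CPM + 1 to the mean Control CPM + 1, with values beyond -2 and 2.5 shown in the end colors. The column of αPD-L1 mouse 2 is the reddest of its group in Gzma, Gzmb, Gzmk and Gzmm. In these rows αPD-L1 mouse 1 lies within the range of the Control mice, at -1.93, -0.53, -0.81 and 0.01. In the Gzma row αPD-L1 mouse 2 stands at 3.18 and RT mice 2 and 3 at 2.75 and 1.96. The other RT mice lie between -0.89 and 0.55 there.

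Interferon-stimulated genes, which cells switch on through the type I interferon receptor, showed no call in either direction: 0 of 63 passed edgeR's test, 5 had an unadjusted p under 0.05, a smaller share than the 16.9% of all genes, 19 were positive, and the median was -0.06. DESeq2 and limma-voom called none of them either. Isg15, a ubiquitin-like modifier, gave 63.4, 59.2, 59.3, 29.5 and 122 CPM in Control and 26.9, 90.1, 40.1, 36.0 and 39.7 in αPD-L1. Control mouse 5 and αPD-L1 mouse 2 were the high mice and the ranges overlapped widely (-0.47, 95% interval -1.15 to 0.20, edgeR adjusted p = 0.488). The same mice were highest for Irf7, the interferon regulatory factor that amplifies the response, at 108 and 91.2 CPM, and for Ifit3, an RNA-binding antiviral protein, at 59.1 and 33.2 (edgeR adjusted p = 0.439 and 0.353). Ifit3 shares sequence with Ifit3b, which makes its level uncertain. Leaving out αPD-L1 mouse 2, 7 of 63 genes were called lower and none higher, with a median of -0.21. Among them were Irf7 (-0.64, edgeR adjusted p = 0.0461) and Ifit3 (-1.35, edgeR adjusted p = 0.0488). More genes of any kind were called in that fit, 291 of 11826 (2.46%), of which 143 were lower. Leaving out Control mouse 5 turned the median to 0.04, with 38 positive. Genes driven mainly by interferon-γ leaned the other way without a call: 16 of 21 were positive (median 0.12, 5 at an unadjusted p under 0.05, none called by edgeR). Among them Tgtp1, a GTPase with a near-identical neighbor Tgtp2, gave 0.53 (edgeR adjusted p = 0.0839), and Ifi47, an immunity-related GTPase picked afterwards, 0.23 (edgeR adjusted p = 0.125).

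Transcripts of the blocked pathway gave no call. Pdcd1, the gene of PD-1, gave 18.2, 31.0, 27.2, 25.7 and 27.4 CPM in Control and 16.3, 30.3, 19.8, 23.8 and 32.5 in αPD-L1. The ranges coincided (-0.07, 95% interval -0.41 to 0.28, edgeR adjusted p = 0.899). Cd274, the gene of PD-L1, chosen afterwards as the antibody target, gave 20.5, 26.2, 24.04, 17.7 and 24.8 CPM against 20.1, 21.5, 20.4, 22.5 and 27.5 (-0.07, 95% interval -0.28 to 0.14). Pdcd1lg2, the gene of PD-L2, gave -0.01. None of the 24 tested genes of PD-1, its ligands and its downstream signaling was called by edgeR, with 11 positive, 5 at an unadjusted p under 0.05 (16.9% of all genes) and a median of -0.02, and DESeq2 called 1, Prkcq, higher. Pik3r1, a regulatory subunit of PI3 kinase, had the highest log2 fold change of the list, 0.18, and Plcg1, phospholipase Cγ1, the lowest, -0.17, without overlap of the groups (edgeR adjusted p = 0.138 and 0.0943). Prkcq, protein kinase Cθ, which relays antigen-receptor signals and was picked afterwards, gave 0.14 (edgeR adjusted p = 0.0867).

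Inhibitory receptors and exhaustion regulators were not called either, 0 of 22 by edgeR with 6 at an unadjusted p under 0.05 (16.9% of all genes) and a median of 0.07. DESeq2 called 1, Ctla4, lower. Ctla4, the competitor of CD28 for its ligands, gave 190, 220, 220, 149 and 196 CPM in Control and 180, 155, 129, 164 and 156 in αPD-L1. Control mouse 4 overlapped with αPD-L1, and the other Control mice were higher (-0.33 ± 0.095, edgeR adjusted p = 0.102). Without Control mouse 4 the gene was called (edgeR adjusted p = 0.0431). Lag3, Tigit and Havcr2, the genes of further inhibitory receptors, gave -0.16, 0.44 and 0.86 (edgeR adjusted p = 0.789, 0.244 and 0.294), and Havcr2 reached its highest value, 11.4 CPM, in αPD-L1 mouse 2. Tox, a transcription factor of exhausted T cells, lay at 122 to 137 and 108 to 136 CPM (-0.08, edgeR adjusted p = 0.524). Eomes and, chosen afterwards, Prdm1, factors of effector and terminal differentiation, gave 0.46 and 0.94 (edgeR adjusted p = 0.184 and 0.0689). Prdm1 was at trace levels in Control, at most 1.99 CPM.

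Of 19 stem and memory genes, Il7r rose and none fell (0.574% of all genes were called higher). An unadjusted p under 0.05 was found for 6 of them, against 16.9% of all genes, and the median was 0.02. Tcf7, the gene of TCF-1, gave 557, 534, 525, 588 and 561 CPM in Control and 552, 471, 510, 512 and 515 in αPD-L1. Mice 2 to 5 of αPD-L1 lay below the Control range and mouse 1 inside it (-0.11 ± 0.044, edgeR adjusted p = 0.198). Ccr7, the receptor that keeps T cells in nodes, gave -0.27 (edgeR adjusted p = 0.0728) and was called as lower by DESeq2 (adjusted p = 0.0206). Ly6a, the gene of Sca-1, ranged from 36.5 to 99.2 CPM in Control and from 55.4 to 201 in αPD-L1, with mouse 2 highest (0.58, edgeR adjusted p = 0.333).

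Shares of cells with a UMI of a gene were compared after each cell was thinned to 2000 UMIs, which left 602 to 4046 cells per mouse. Tcf7+ cells made up 64.15%, 62.24%, 63.36%, 66.28% and 63.35% of Control mice and 62.32%, 58.03%, 59.88%, 60.60% and 62.29% of αPD-L1 mice. Means were 63.9% ± 1.51 and 60.6% ± 1.80 (SD, n = 5 each), and only αPD-L1 mice 1 and 5 reached the lowest Control mouse. The difference of -3.25 percentage points had p = 0.0238 in a two-sided exact permutation test, whose smallest possible p was 0.00794, and an adjusted p of 0.19 over 8 shares by that exact test. Counting error alone gave a 95% Wilson interval of 62.4% to 69.9% for Control mouse 4, the mouse with fewest cells. Unthinned shares also vary with the depth of cells, whose median was 6217.5 UMIs in αPD-L1 and 6951 in Control. They were 90.5% ± 1.30 in Control and 87.4% ± 0.934 in αPD-L1. Unthinned and at 1000 UMIs the difference passed (adjusted p = 0.0318 in the exact permutation test). At 4000 UMIs (-3.29 points, adjusted p = 0.127), as the expectation over all draws of 2000 UMIs (-2.99 points, adjusted p = 0.127) and with HTODemux at margin 2 (-4.49 points, adjusted p = 0.0635) it did not pass the same exact permutation test. As a background, barcodes removed for Cd79a or MHC class II UMIs that had no UMI of Cd3e or Cd8a had a Tcf7 UMI in 22.6% of 31 in Control (95% Wilson interval 11.4% to 39.8%, median 6220 UMIs before thinning) and in 13.6% of 44 in αPD-L1 (6.40% to 26.7%, median 5240), under the shares in the sorted cells. These intervals cover counting error only.

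The remaining 7 shares did not pass the exact permutation test at 2000 UMIs. Tcf7+ Tox+ cells were 15.1% ± 2.16 of Control and 13.1% ± 1.60 of αPD-L1 (adjusted p = 0.508, exact permutation test, n = 5 each). Control mouse 3 was highest at 18.9%, and at 1000 UMIs, at 4000 UMIs and unthinned the lower share in αPD-L1 passed (adjusted p = 0.0318 each, exact). The unthinned share also varies with depth, which was lower in αPD-L1. Tcf7+ Ly6a+ cells were 6.11% ± 1.20 and 7.06% ± 1.87, and cells with Tox and no Tcf7 were 8.10% ± 1.38 and 8.02% ± 0.652. Ly6a was frequent in the background barcodes, with a UMI in 12.9% in Control (95% Wilson interval 5.13% to 28.85%) and in 38.6% in αPD-L1 (25.7% to 53.4%). These barcodes can express Ly6a themselves, and no background was computed for Tcf7 and Ly6a together. How much of the Tcf7+ Ly6a+ shares was background is therefore not known. Gzmb+ cells were 1.15%, 1.18%, 1.06%, 1.33% and 0.728% of Control mice and 0.903%, 3.39%, 1.37%, 0.884% and 1.27% of αPD-L1 mice, so that mouse 2 alone stood apart. At 4000 UMIs the Gzmb+ share was 1.06 percentage points higher in αPD-L1 (adjusted p = 0.0318, exact permutation test). The background barcodes had a Gzmb UMI in 0 of 31, which by a limit of 3 counts allows a share of up to 9.68% (the upper Wilson limit was 11.03%), and in 1 of 44 (95% Wilson interval 0.402% to 11.8%), so these low shares cannot be set apart from background. Isg15+ cells (10.5% ± 3.54 and 7.58% ± 3.30) were near the 9.68% and 9.09% of background barcodes (95% Wilson intervals 3.35% to 24.9% and 3.59% to 21.2%), which can express the gene themselves. Mki67+ cells were 11.2% ± 0.745 and 10.8% ± 1.78. Pdcd1 was seen in only 4.29% ± 0.923 and 4.01% ± 1.04 of cells, although all had been sorted for PD-1 protein, and in 0 of 31 and 0 of 44 background barcodes, which by the same limit of 3 counts allows shares of up to 9.68% and 6.82%.

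**Figure D4:**
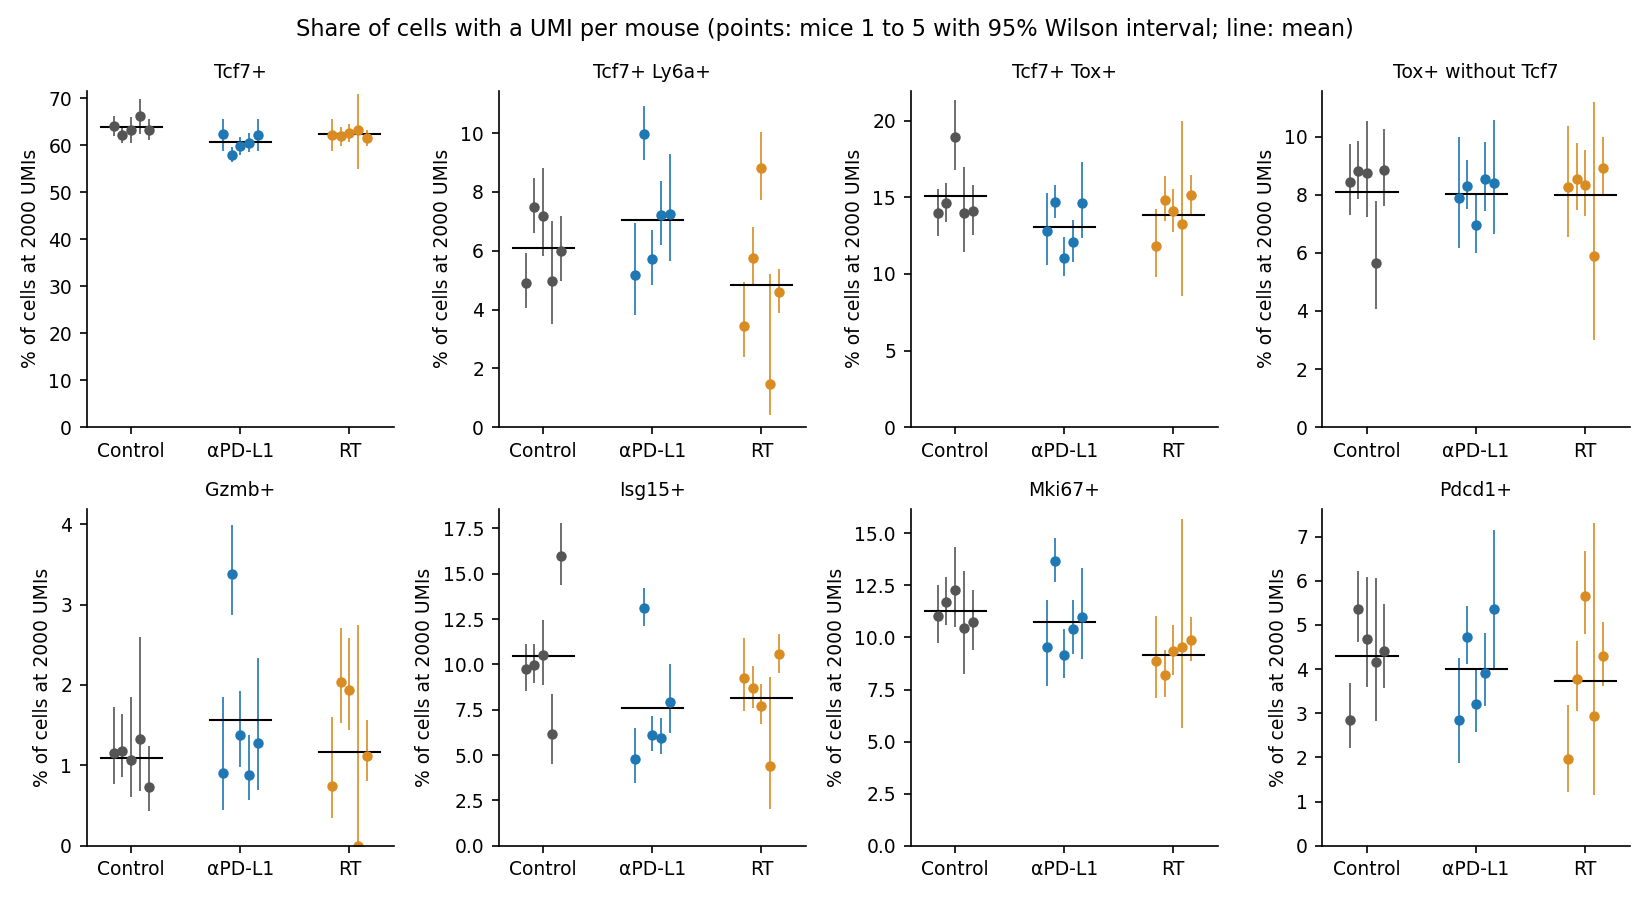
Share of cells with a UMI at 2000 UMIs per cell (y axis, percent, from 0) in each mouse of Control, αPD-L1 and RT, for 8 gene combinations. Points are mice 1 to 5 with 95% Wilson intervals and the line is the mean over mice. In the panel of Tcf7+ cells the αPD-L1 mice lie between 58.0% and 62.3% and the Control mice between 62.2% and 66.3%. In the panel of Gzmb+ cells αPD-L1 mouse 2 stands above the other αPD-L1 mice and all Control mice. RT mice 2 and 3 lie at 2.04% and 1.93% there.

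αPD-L1 was then set beside RT, the other single treatment, from the fit of all 20 mice. RT mouse 4 had only 140 cells. A single gene of 12050 was called between αPD-L1 and RT (0.0083%), against 545 at an unadjusted p under 0.05. It was Rpl10-ps3, at 107, 101, 118, 109 and 106 CPM in αPD-L1 and 89.3, 81.8, 83.5, 97.7 and 78.1 in RT (0.36 ± 0.057, edgeR adjusted p = 0.0344), and it was lost in a fit of these 10 mice alone, which called none by edgeR and had 607 at an unadjusted p under 0.05. The 68 genes called higher in αPD-L1 than in Control had a median log2 fold change of 0.26 over Control and of 0.09 over RT, and the 74 called lower had medians of -0.34 and -0.11. Values over RT are a description, since the genes were chosen by their αPD-L1 values. AY036118, at 627 to 728 CPM in RT, lay between both groups, and Lars2, at 216 to 272, overlapped with the αPD-L1 range of 204 to 241. Hist1h4d was 56.9 to 66.6 CPM in RT, inside the αPD-L1 range and below all Control mice. Klrd1 at 193 to 206 CPM, Il7r at 137 to 213 and Dnaja1 at 263 to 285 overlapped with αPD-L1 and were above all Control mice in RT. Phlda1 at 40.8 to 51.7 CPM and Nfkbia at 456 to 558 reached into both ranges in RT. The effector list had a median of 0.21 in RT over Control and of 0.06 in αPD-L1 over RT. The histone list had -0.31 and 0.10. RT and αPD-L1 share the Control mice as their reference, so like values over Control are not independent of each other.

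Last, the effect of αPD-L1 was compared with and without RT. Added to RT, αPD-L1 called 381 of 12050 genes (3.16%) in RT + αPD-L1 over RT. The interaction, which is the effect of αPD-L1 with RT minus its effect without RT, was called for 107 of 12050 genes (0.888%), 80 of them with a higher and 27 with a lower effect when RT was given. That count ranged from 17 (without RT mouse 3) to 245 (without RT + αPD-L1 mouse 1). Among interferon-stimulated genes, 23 of 63 had a higher effect with RT (0.664% of all genes), and the median interaction was 1.42. Isg15 lay at 61.5, 58.0, 45.2, 28.9 and 76.3 CPM in RT and 55.9, 616, 844, 180 and 189 in RT + αPD-L1. All but mouse 1 of RT + αPD-L1 were above every mouse of αPD-L1 alone, whose highest value was 90.1 (interaction 3.22 ± 0.71, edgeR adjusted p = 0.0324). Irf7 and Ifit3 gave interactions of 2.22 and 3.69 (edgeR adjusted p = 0.0267 and 0.0248). The median interaction was 0.07 for the effector genes and 0.07 for the antigen-receptor response genes.

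Several of the named transcripts that fell with αPD-L1 alone had a called interaction. AY036118 was 639 to 755 CPM in RT + αPD-L1 and 627 to 728 in RT, with no difference beyond the spread between mice (0.04, edgeR adjusted p = 0.819), and its interaction was 0.65 ± 0.070 (edgeR adjusted p = 3.32e-05). Gm42418, Lars2 and Hist1h4d gave interactions of 0.47, 0.47 and 0.44 (edgeR adjusted p = 0.000282, 0.025 and 0.0303). Rpl10-ps3 turned from higher to lower, at 66.0 to 76.2 CPM in RT + αPD-L1 against 78.1 to 97.7 in RT (interaction -0.72 ± 0.080, edgeR adjusted p = 4.17e-05), and Creb1 gave -0.39 (edgeR adjusted p = 0.0216). These genes had been chosen for their difference between αPD-L1 and Control, which is part of the interaction, so their interactions are not independent of that choice.

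**Figure D5:**
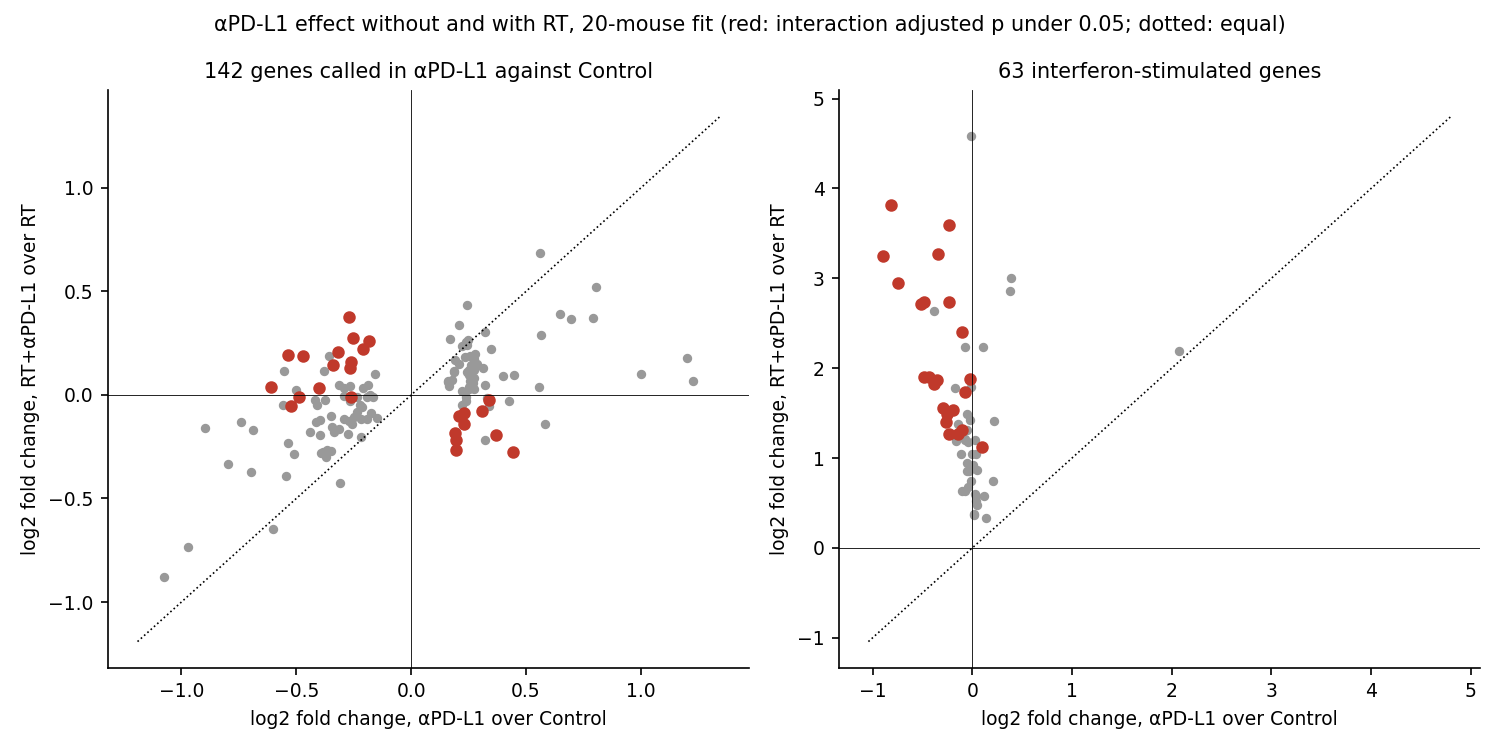
Log2 fold change of RT + αPD-L1 over RT (y axis) against that of αPD-L1 over Control (x axis), both from the fit of all 20 mice, for the 142 called genes (left) and the interferon-stimulated genes (right). Each point is a gene, red where the interaction had an adjusted p under 0.05, and the dotted line marks equal effects. In the right panel the points spread upward, to high values with RT at values near 0 without it.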

How the data were processed

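Sorted CD8+ PD-1+ CD44+ T cells were profiled with 10x Genomics droplets and hashtag antibodies. The deposited values were raw UMI counts for each gene, hashtag and barcode, which the authors made with Cell Ranger (6.1.2 per the file headers, another version in the study's methods) on mm10. The labels name a 3' kit. The study assigned hashtags with HTODemux. Here the boundary of each hashtag was the emptiest bin between its background and positive modes, a departure from the study that was chosen with earlier results known. It placed 9173 Control barcodes on a mouse, and HTODemux (Seurat 5.3.0, quantile 0.99), run as an alternative, placed 6831 or 4502, depending on its margin. Hashtag 1 had a low boundary in both libraries. It was 44.7 counts in Control (446.7 to 562.3 for the other hashtags) and 70.8 in αPD-L1 (223.9 to 354.8). No hashtag-to-animal key was used, so mouse numbers name hashtags only.

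Counts of kept barcodes were summed per mouse (5079475 to 35206689 UMIs) and tested two-sided with edgeR 4.0.16 (TMM, filterByExpr, quasi-likelihood F test, Benjamini-Hochberg) in R 4.3.3, with 10 mice for αPD-L1 against Control. αPD-L1 against RT, RT + αPD-L1 against RT and the interaction came from a fit of all 20 mice. CPM are counts per 1000000 scaled by TMM, and log2 fold changes carry standard errors. The fit was tested on simulated data beforehand. DESeq2 1.42.0, limma-voom (limma 3.58.1), other size factors, no filter on low counts, HTODemux, no removal by markers, a mitochondrial limit of 5%, cells with a Tcf7 UMI and leaving out each mouse were the alternatives. Shares were compared by exact permutation tests over 5 + 5 mice (252 assignments).

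Members and gene lists were chosen with earlier results of these data known. Named genes were the up to 15 largest called changes in each direction, the genes that the study names, and from every other list up to 4 called members and the extremes at 10 CPM or more. Genes outside this rule are marked as chosen after their values were seen. Results that need some genes are not reported here. Sequences and starts are from RefSeq.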

Additional observations from a re-analysis of the deposited data

Results flagged for a closer look

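Single mice that stood apart from the other 4 of their group, by a gap above Dixon's critical value of 0.71 of the group's range, were found in 22 of the 188 groups of 5 mice tested. Chance flags about 1 group in 20, and 9 of the 22 were αPD-L1 mouse 2. That mouse was highest of its group for Hist1h1c (88.5 CPM), Trav19 (29.1 CPM), Gzma (89.1 CPM), Gzmk (89.8 CPM), Gzmm (23.98 CPM), Isg15 (90.1 CPM), Irf7 (91.2 CPM), Ifit3 (33.2 CPM) and the share of Gzmb+ cells (3.39%).

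Other mice stood apart for single values. αPD-L1 mouse 1 was highest for Dusp1 (349 CPM) and lowest for Icam2 (26.2 CPM), and αPD-L1 mouse 3 was lowest for Cd44 (53.5 CPM). αPD-L1 mouse 5 was highest for Tnf (36.3 CPM). In Control, mouse 3 was highest for Ier5l (15.95 CPM), Ifng (84.5 CPM), Tnf (45.0 CPM) and the share of Tcf7+ Tox+ cells (18.9%). Control mouse 4 was highest for Cirbp (165 CPM), Shmt1 (27.5 CPM) and Prdm1 (1.99 CPM) and lowest for the share of cells with Tox and no Tcf7 (5.65%), and Control mouse 5 was highest for Ifit3 (59.1 CPM).

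The effect of αPD-L1 with RT differed from its effect without RT, by the interaction term of edgeR's test, for 12 of the genes named. The log2 difference was 0.65 for AY036118, 0.47 for Gm42418, 0.47 for Lars2, 0.44 for Hist1h4d, 0.53 for Hist1h4h, 0.40 for Hist1h4c and 0.73 for Stoml1, all of them lower in αPD-L1 than in Control. It was -0.72 for Rpl10-ps3 and -0.39 for Creb1, which were higher in αPD-L1 than in Control. For these 9 genes the difference holds the contrast by which they were named. It was 3.22 for Isg15, 2.22 for Irf7 and 3.69 for Ifit3, which were not called without RT.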

How the results depend on the processing

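The number of genes called between αPD-L1 and Control, 142 by edgeR, was 61 in the fit of all 20 mice, 276 in DESeq2 (163 higher, 113 lower), 241 in limma-voom, and 38 and 17 with HTODemux at margins 2 and 1. Leaving out 1 Control mouse at a time, from mouse 1 to mouse 5, gave 14, 22, 67, 62 and 36. It was 291 without αPD-L1 mouse 2, 56 without mouse 3, 22 without mouse 4 and 46 without mouse 5 of that group. It lay between 98 and 195 with the other size factors, no filter on low counts, no removal by markers, the mitochondrial limit of 5%, cells with a Tcf7 UMI and without αPD-L1 mouse 1. The single call between αPD-L1 and RT was lost in the fit of those 10 mice alone (0 calls by edgeR, 607 genes at an unadjusted p under 0.05), and leaving out a mouse gave 0 to 1. The 107 interaction calls became 17 (without RT mouse 3) to 245 (without RT + αPD-L1 mouse 1). For the 43 called genes named, none of 854 gene and setting pairs changed sign and 299 lost the call. Of these genes 9 were called in every leave-one-out fit, 11 in 2 or fewer of the 10, and 23 in the fit of all 20 mice. The causes were not tested. No paired analysis was possible because each group was 1 library and hashtag numbers only name mice.

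Genes not called changed sign in 26 of 856 pairs. The log2 fold change of Cd74 was 0.90 with no barcodes dropped by markers. Leaving out a mouse gave -0.054 to 0.21 for Hist1h2ae, -0.19 to 0.033 for Pdcd1, -0.13 to 0.0032 for Cd274, -0.14 to 0.076 for Pdcd1lg2, -0.32 to 0.029 for Lag3, -0.040 to 0.19 for Ifng, -0.11 to 0.10 for Tnf and -0.20 to 0.020 for Mki67. With HTODemux at margin 2 it was 0.025 for Pdcd1lg2, -0.017 for Ifng and 0.049 for Mki67, and Ifng was at -0.065 at margin 1 and -0.040 in cells with a Tcf7 UMI.

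Shares of cells moved with the depth to which cells were thinned. The difference for Tcf7+ cells was -4.12 points at 1000 UMIs and -3.05 points unthinned, and for Tcf7+ Tox+ cells it was -1.63 at 1000 UMIs, -3.49 at 4000 UMIs and -7.54 unthinned. All of these, and 1.06 points for Gzmb+ cells at 4000 UMIs, passed the exact permutation test at an adjusted p of 0.0318, which the values at 2000 UMIs did not. Unthinned differences also vary with the depth of cells, which was lower in αPD-L1. The difference for cells with Tox and no Tcf7 was 1.08 at 4000 UMIs, 1.18 unthinned, 0.705 with HTODemux at margin 2, 0.145 as the expectation over all draws of 2000 UMIs (added after seeing the data) and -0.698 to 0.184 with a mouse left out. For Pdcd1+ cells it was 0.0368 at 4000 UMIs and -0.649 to 0.0041 with a mouse left out.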

Other observations

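Other gene lists gave few or no calls between αPD-L1 and Control. At an unadjusted p under 0.05 were 16.9% of all genes tested. All 14 S100, annexin and galectin genes tested had a positive log2 fold change, with a median of 0.16 and 5 at an unadjusted p under 0.05, and none was called by edgeR, DESeq2 or limma-voom. None of 81 ribosomal protein genes (median 0.00011, 6 at an unadjusted p under 0.05), 17 glycolysis genes (-0.05, 3), 12 genes of the BCL2 family (0.02, 1) and 16 costimulatory receptors and TNF family genes (-0.08, 4) was called by edgeR. DESeq2 and limma-voom called none of these lists either, except 2 ribosomal protein genes, lower in DESeq2. Of the costimulatory list 13 genes were negative. Among 18 genes of common gamma chain cytokine signaling, Il7r was the only one that edgeR called (median 0.04, 6 at an unadjusted p under 0.05), and DESeq2 and limma-voom called 2 each.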
